A study of Drosophila melanogaster with 4 samples.

Results

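The genes described here build and run mitosis in Drosophila melanogaster: the cyclins and kinases that start it, the spindle checkpoint, the kinetochore, condensin, spindle motors, cytokinesis factors and centrosome proteins. A list of 50 such genes was drawn up by known function, with earlier results of these data known. Shares of the list set beside all genes below are therefore descriptions, not tests. Of the 50 listed genes, 39 were measured, out of 11982 genes named by a probe set with 1 symbol. The brightest probe set stood for each gene. The other 11 (CycA, Cdk1, stg, polo, aurA, BubR1, Klp3A, pav, sti, asp and cnn) were not analysed here.

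RNA came from pupal eye discs dissected about 40 h after pupariation from animals kept at 29 °C, and each sample was hybridised to 1 Affymetrix array. The Yki group had 2 arrays from animals that carried GMR Gal4 and UAS Yki, and so overexpressed Yorkie (Yki), a transcriptional coactivator that Hippo signalling holds back and that drives growth and proliferation in imaginal discs. The control group had 2 arrays from animals that carried GMR Gal4 without UAS Yki. All 4 samples therefore shared the driver. GMR Gal4 is active in cells of the eye field that have entered differentiation, not in the whole disc. The labels call the samples biological replicates and do not say how many animals each one pooled.

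Cells enter mitosis when cyclins of the A and B types activate Cdk1. Condensin compacts the chromosomes, the kinetochore ties each centromere to spindle microtubules, and the checkpoint delays anaphase until every kinetochore is attached. The anaphase-promoting complex then marks securin and the mitotic cyclins for destruction, separase cuts cohesin, and the central spindle guides the cleavage furrow. Many of these genes are transcribed mostly in dividing cells. In the fly eye, cell division is largely over by the middle of pupal development, when photoreceptors and other eye cells differentiate.

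yki had intensities of 26417 and 26183 on the Yki arrays, against 1285 and 1261 on the control arrays. It was one of 3 probe sets of 18769 (0.016%) past a limma adjusted p of 0.05. The median intensity over non-control probe sets was 79.4 on control replicate 1 and 81.1 on Yki replicate 1. It was 97.1 on control replicate 2 and 101 on Yki replicate 2. The eye transcription factor gene gl had 2456 and 3364 on the Yki arrays, against 2950 and 3959 on the control arrays. Other eye markers went both ways. ro had 53.5 and 6.13 in Yki discs, against 166 and 204 in control discs. sev had 59.3 and 82.4, against 288 and 238, while the channel gene trp had 1627 and 2875, against 462 and 551. Of 14 eye markers, 10 were higher in Yki discs by the log2 difference and 4 were lower. RNA typical of fat body was also present, with the storage protein gene Lsp2 at 12461 and 11037 in Yki discs, against 13782 and 11559 in control discs. With 4 arrays in all, the number of arrays limits the precision of every value.

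Mitosis genes were lower in Yki discs than in control discs, across most roles and by more than the median gene. The median difference over the 39 measured members was -1.05 on the log2(intensity + 16) scale, beside -0.01 over all 11982 genes. Differences here are always Yki minus control on that scale, where the added constant shrinks the differences of dim probe sets. Incenp, a scaffold of the complex that carries Aurora B kinase, showed the largest difference, at -1.91. The anaphase-promoting complex activator fzr had the highest, at 0.48. In bulk tissue of this kind, fewer dividing cells and less of each RNA per cell cannot be told apart.

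No single member passed the limma test over all probe sets (0 of 39 at an adjusted p under 0.05, smallest adjusted p 0.11 for Incenp). With array medians subtracted 16 members passed, all lower, where 4.66% of all probe sets passed in either direction (433 lower and 441 higher of 18769). That fit gave every probe set the same SD. Incenp alone passed when only probe sets with a mean of at least 100 were tested, beside 0.869% of those probe sets in either direction. At an unadjusted limma p under 0.05, 28 of the 39 were lower (71.8%), where 8.07% of all genes met the same rule. None of the members was higher at that threshold, beside 7.19% of all genes. Both Yki arrays lay below both control arrays for 33 of 39 members, beside 25.2% of all genes. The reverse held for 1 member, fzr, beside 22.5% of all genes. In 16 of 39 members every Yki array was at least 2-fold below every control array, on the log2(intensity + 16) scale, beside 2.32% of all genes. Among the 37 members with a mean intensity of at least 100, 26 were lower at an unadjusted p under 0.05, beside 9.89% of all genes that bright. With 2 arrays a group, the smallest two-sided p that exact permutation of the arrays allows for a single gene is 0.33.

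**Figure D1:**
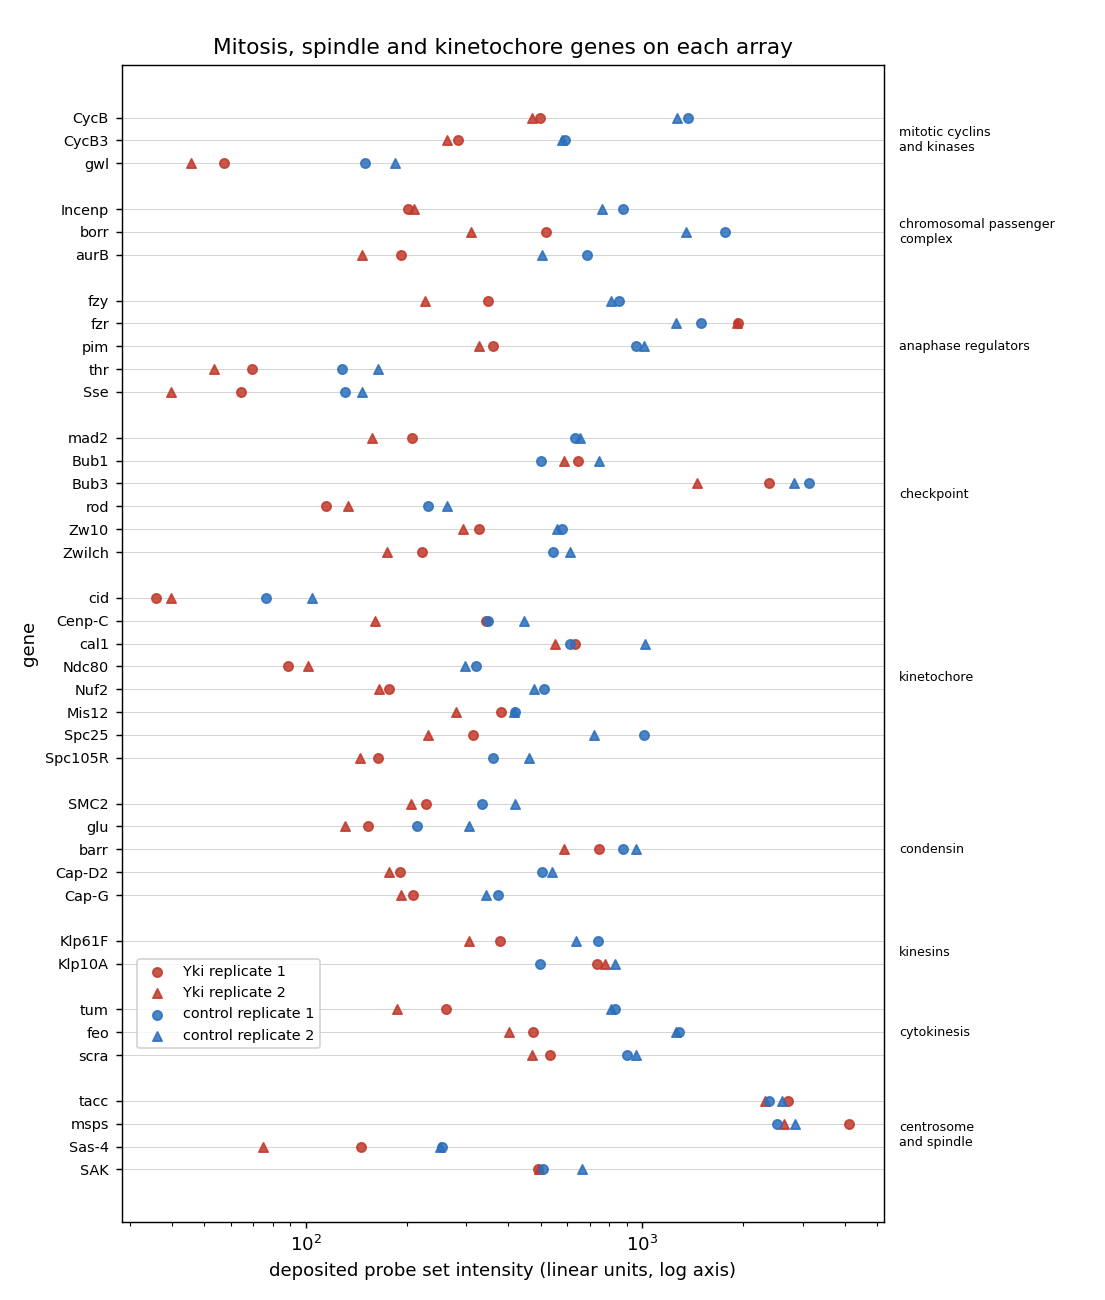
Deposited intensity (log axis) of the 39 measured mitosis genes on each array, grouped by role, with Yki arrays in red and control arrays in blue (circle for replicate 1, triangle for replicate 2). For 33 genes both red points lie left of both blue points, beside 25.2% of all genes. fzr shows the reverse order, beside 22.5% of all genes, and 5 genes overlap.

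Among mitotic cyclins and kinases, all 3 measured members were lower in Yki discs, with a median difference of -1.42. CycB encodes cyclin B, a partner of Cdk1 at mitotic entry. It had intensities of 496 and 470 in Yki discs, against 1372 and 1272 in control discs, so the Yki mean was 36.5% of the control mean (difference -1.42, SE 0.22). The greatwall kinase gene gwl, whose product holds back the phosphatase that opposes Cdk1, had 57.1 and 45.6 in Yki discs, against 150 and 184 in control discs (difference -1.44, SE 0.25). CycB3, for another mitotic cyclin, differed by -1.05 and had 284 and 263 in Yki discs, against 589 and 578 in control discs. For all 3 genes both Yki arrays lay below both control arrays, beside 25.2% of all genes.

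The chromosomal passenger complex was the role with the lowest median, -1.90 over 3 of 3 members. This complex corrects faulty kinetochore attachments and later moves to the central spindle. Incenp, its scaffold, measured 201 and 210 in Yki discs, against 876 and 759 in control discs, which puts the Yki mean at 25.2% of the control mean (difference -1.91, SE 0.23). borr, for the borealin subunit that helps bring the complex to centromeres, measured 519 and 311 in Yki discs, against 1768 and 1347 in control discs (difference -1.90, SE 0.34). Every Yki array was below every control array for both genes, beside 25.2% of all genes. The 2 Yki arrays of borr lay further apart than those of Incenp. The kinase gene aurB measured 193 and 148 in Yki discs, against 687 and 506 in control discs (difference -1.71, SE 0.28). The fourth subunit, the survivin relative encoded by Det, stood outside the list of 50 and differed by -1.33 (366 and 279 in Yki discs, against 820 and 834 in control discs).

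Of 5 regulators of anaphase, 4 were lower in Yki discs and 1 was higher. fzy and fzr encode the activators of the anaphase-promoting complex, fzy in mitosis itself and fzr at mitotic exit, in G1 and in cells that have left the cycle. fzy had 347 and 227 in Yki discs, against 854 and 811 in control discs (difference -1.51, SE 0.29). fzr had 1931 and 1917 in Yki discs, against 1500 and 1266 in control discs (difference 0.48, SE 0.23, unadjusted limma p 0.094, adjusted p 0.465). The groups were apart in opposite directions for these 2 genes, and the difference for fzr did not pass. For fzy the other 2 probe sets were dim, with means of 20.8 and 9.45, and differed by 0.20 and -0.61. Every other measured member was represented by 1 probe set.

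Securin and separase, the pair that controls sister chromatid separation, were also lower. pim, the fly securin, had 361 and 329 in Yki discs, against 962 and 1015 in control discs (difference -1.48, SE 0.22). The separase subunit genes thr and Sse differed by -1.07 and -1.21, with Yki means of 61.4 and 52.0, against control means of 146 and 139. Both are dim enough for the added constant to shrink these differences.

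In the spindle checkpoint, 5 of 6 members were lower and Bub1 was level, with a median of -0.88. mad2, part of the signal that inhibits fzy, had 208 and 157 in Yki discs, against 632 and 653 in control discs (difference -1.74, SE 0.25). Zwilch, with rod and Zw10, forms the complex that brings dynein and mad2 to kinetochores. It had 221 and 175 in Yki discs, against 543 and 610 in control discs (difference -1.48, SE 0.25). Its partners differed by less, rod by -0.91 and Zw10 by -0.84. The Yki arrays were below the control arrays for all 3 partners, beside 25.2% of all genes.

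Bub1 and Bub3, which work together at the kinetochore, had the smallest differences of the 6. Bub1 had 646 and 586 in Yki discs, against 502 and 744 in control discs, so the groups overlapped (difference 0.01, SE 0.28, and -0.027 with array medians subtracted). Bub3 had 2379 and 1461 in Yki discs, against 3142 and 2833 in control discs (difference -0.67, SE 0.31, unadjusted limma p 0.0842). Its groups did not overlap, but its 2 Yki arrays differed from each other by more than the groups did (0.70 on the log2 scale).

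At the kinetochore, all 8 members were below 0, with a median of -1.14. The outer, microtubule-binding layer stood lowest, in a split of the list made after the values were seen. Spc25 had 314 and 232 in Yki discs, against 1011 and 717 in control discs (difference -1.60, SE 0.30). Ndc80 had 88.5 and 102 in Yki discs, against 321 and 297 in control discs (difference -1.55, SE 0.23). Both encode subunits of the Ndc80 complex, and its subunit Nuf2 differed by -1.45. The scaffold gene Spc105R, which carries checkpoint proteins, differed by -1.32. In all 4 of these outer kinetochore genes, every Yki array was at least 2-fold below every control array, beside 2.32% of all genes.

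Genes of the centromere itself differed by less. cid, the centromeric variant of histone H3, had 36.0 and 39.8 in Yki discs, against 76.3 and 104 in control discs (difference -0.97, SE 0.25). It is dim enough for the added constant to shrink its difference, which was -1.22 with a pseudocount of 1. Cenp-C, which links that chromatin to the kinetochore, had 345 and 160 in Yki discs, against 348 and 446 in control discs (difference -0.70, SE 0.41, unadjusted limma p 0.145), and the difference was -0.18 without Yki replicate 2. Its Yki replicate 1 was level with control replicate 1. cal1, the loader of cid, had 630 and 550 in Yki discs, against 612 and 1022 in control discs (difference -0.42, and -0.05 without control replicate 2), and its groups overlapped. Mis12, of the layer between centromere and outer kinetochore, differed by -0.34, and its groups were apart by less than its 2 Yki arrays.

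Condensin was lower in Yki discs in all 5 subunits, with a median of -0.79. Cap-D2 had 191 and 178 in Yki discs, against 505 and 541 in control discs (difference -1.43, SE 0.22). The ATPase subunit genes SMC2 and glu (the fly SMC4) differed by -0.75 and -0.79, and Cap-G by -0.79. glu, second by size, had 153 and 131 in Yki discs, against 215 and 306 in control discs. barr, the subunit that bridges the ATPases, differed by -0.46 and had an unadjusted limma p of 0.119. Both Yki arrays lay below both control arrays for all 5, beside 25.2% of all genes. Subunits of the second condensin complex, outside the list of 50, had other values: Cap-H2 differed by 0.15 and Cap-D3 by 0.13, with overlapping groups. Cap-D3 was dim, with 37.8 and 32.4 in Yki discs, against 26.8 and 34.7 in control discs. Whether the 2 complexes differ in response was not tested.

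**Figure D2:**
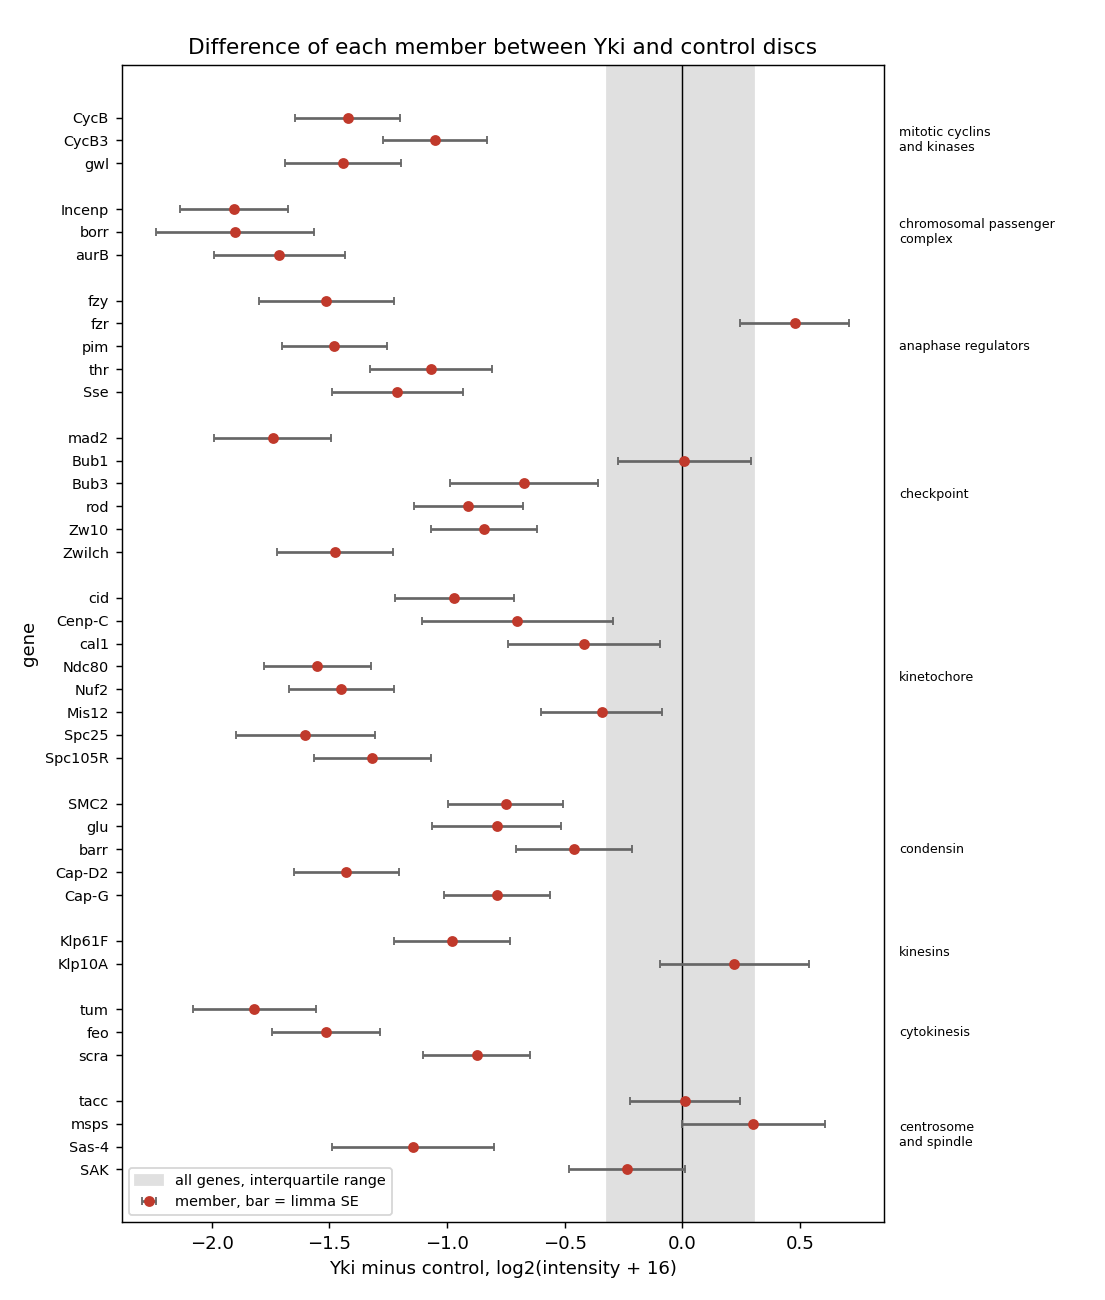
Difference of each measured mitosis gene between Yki and control discs (x axis, log2 of intensity + 16, Yki minus control), with limma standard errors as bars and the interquartile range of all genes in grey. Of the 39 genes, 34 lie below 0, from -1.91 for Incenp, and 5 lie above 0, up to 0.48 for fzr, of which Bub1 and tacc (0.01 each) turned below 0 with array medians subtracted.

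The 2 measured mitotic kinesins gave different values. Klp61F, the motor that pushes spindle poles apart, had 377 and 306 in Yki discs, against 738 and 637 in control discs (difference -0.98, SE 0.25). Klp10A, a microtubule-depolymerising kinesin that also acts outside mitosis, had 733 and 777 in Yki discs, against 499 and 834 in control discs (difference 0.22, SE 0.32). Klp10A overlapped between groups, and its 2 control arrays lay further apart than its group means.

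Cytokinesis genes were lower in all 3 measured members, with a median of -1.51. tum, which forms the centralspindlin complex that organises the central spindle, had 261 and 187 in Yki discs, against 830 and 810 in control discs (difference -1.82, SE 0.26). feo, a microtubule bundler of the central spindle, had 474 and 401 in Yki discs, against 1291 and 1260 in control discs (difference -1.51, SE 0.23). The anillin gene scra, whose product joins actin, myosin and septins in the furrow, differed by -0.87. In all 3 both Yki arrays lay below both control arrays, beside 25.2% of all genes. For tum and feo the gap between any Yki and any control array was at least 2-fold, beside 2.32% of all genes.

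Centrosome and spindle genes had a median of -0.11 over 4 members, 2 below 0 and 2 above. Sas-4, needed to build centrioles, was low in Yki discs, with 147 and 74.8, against 255 and 250 in control discs (difference -1.15, SE 0.34, and -0.73 without Yki replicate 2). SAK, the kinase that starts centriole duplication, had 489 and 493 in Yki discs, against 509 and 663 in control discs (difference -0.24, SE 0.25).

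The microtubule-binding partners tacc and msps were close to level or above 0. tacc had 2717 and 2317 in Yki discs, against 2378 and 2604 in control discs (difference 0.01, SE 0.23, and -0.023 with array medians subtracted). msps had 4130 and 2635 in Yki discs, against 2515 and 2844 in control discs (difference 0.30, SE 0.30, and -0.021 without Yki replicate 1). Both overlapped between groups, and both encode proteins that also organise microtubules outside mitosis. Whether such a role bears on their values, or on that of Klp10A, was not tested.

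Across members, the rank correlation between mean intensity and difference was 0.23 (Spearman's rho over 39 genes on the same 4 arrays, given as a description). The 2 Yki arrays did not stand at the same level: 33 of 39 members were higher on Yki replicate 1 than on Yki replicate 2, beside 49.8% of all genes. The median member differed by -0.88 between the arrays numbered 1 and by -1.38 between those numbered 2. In both number pairs the difference was below 0 for 33 members, beside 31.6% of all genes. For 30 of 39 members, 29 lower and fzr higher, the difference between groups exceeded the gap between replicate arrays in both groups, beside 34.1% of all genes in either direction. The exceptions were Bub1, Bub3, Cenp-C, cal1, Mis12, Klp10A, tacc, msps and SAK.

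A wider set of 83 mitosis genes outside the list of 50 gave 71 measured genes, with a median difference of -0.50. At an unadjusted limma p under 0.05, 28 of the 71 were lower and 1 higher (8.07% and 7.19% of all genes), and 0 passed an adjusted p of 0.05 (smallest adjusted p 0.114). Both Yki arrays were below both control arrays for 45 and above them for 6 (25.2% and 22.5% of all genes). Their regulators and anaphase-promoting complex genes had a median of -0.52 over 17, kinetochore and cohesin genes -0.45 over 16, and spindle, centrosome and cytokinesis genes -0.52 over 38.

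The lowest of these was Cks30A, a small subunit that binds Cdk1, with 341 and 296 in Yki discs, against 1202 and 1496 in control discs (difference -2.02, SE 0.25). Next in its set came Det, given above, and Rca1, an inhibitor of the anaphase-promoting complex with fzr, at -1.05. Among kinetochore genes Spindly, which recruits dynein, differed by -1.62, Nnf1a of the Mis12 complex by -1.22, and the kinetochore kinesin gene cmet by -1.14. All of these separated the groups, which was part of the rule for naming them.

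Augmin, which seeds microtubules within the spindle, was lower in all 8 subunits measured (dgt2, dgt3, dgt4, dgt5, dgt6, msd1, msd5 and wac), with a median of -1.08. This grouping was made after the values were seen. msd1 had 131 and 99.6 in Yki discs, against 637 and 351 in control discs (difference -1.91), dgt4 differed by -1.66 and dgt3 by -1.57. Against this, sub, a kinesin relative best known from female meiosis, was the 1 gene higher at an unadjusted limma p under 0.05. It differed by 0.77 (unadjusted limma p 0.0246, adjusted p 0.308). Its probe set was dim, with 49.6 and 66.6 in Yki discs, against 26.1 and 28.2 in control discs. nod and Septin4 were also above the control arrays, by 0.59 and 0.40, as was the dim cohesin loader gene Nipped-B, by 0.65. For nod the Yki arrays had 354 and 742, against 340 and 331 in control discs, so Yki replicate 1 was near the control level.

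**Figure D3:**
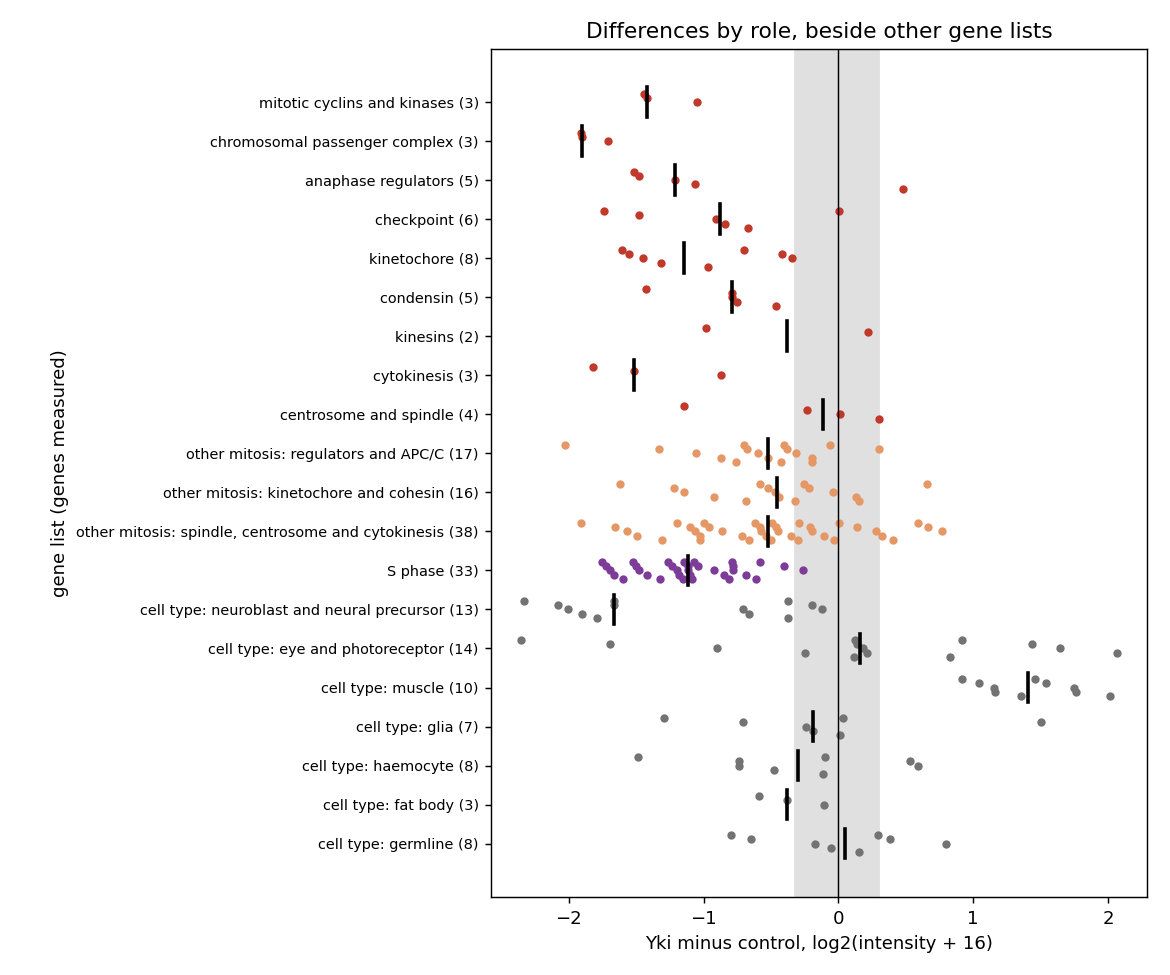
Difference between Yki and control discs (x axis, log2 of intensity + 16, Yki minus control) for each gene, by list, with the number of genes measured in parentheses, a black bar at the median and the interquartile range of all genes in grey. The medians run from -1.90 for the chromosomal passenger complex to -0.11 for centrosome and spindle genes among members, with S phase genes at -1.12, neuroblast and neural precursor markers at -1.66 and muscle markers at 1.41.

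Genes of S phase gave values close to those of the mitosis genes. All 33 measured S phase genes were below 0, with a median of -1.12, beside -1.05 for the 39 mitosis genes. Both Yki arrays were below both control arrays for 33 of 33 S phase genes and 33 of 39 mitosis genes, beside 25.2% of all genes. At an unadjusted limma p under 0.05, 27 of the 33 S phase genes were lower, beside 8.07% of all genes. Mcm5, a subunit of the replicative helicase, differed by -1.75 and PCNA, the polymerase clamp, by -1.73. No difference between the 2 lists was tested.

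Markers of other cell types moved with the same contrast. Of 13 neuroblast and neural precursor genes, all were below 0 (median -1.66), and both Yki arrays were below both control arrays for 10, beside 25.2% of all genes. Their summed intensity was 5029 and 5183 on the Yki arrays, against 6943 and 9230 on the control arrays. A large part of each sum came from grh, whose groups overlapped. It had 2401 and 3551 on the Yki arrays, against 2951 and 4880 on the control arrays. The neuroblast gene dpn had 127 and 111 in Yki discs, against 533 and 574 in control discs (difference -2.08). The proneural gene ac had 74.7 and 69.7 in Yki discs, against 534 and 343 in control discs (difference -2.33). Fly neuroblasts and sensory organ precursors are dividing cells, and the part of these cells in the mitosis values was not tested. None of the 13 markers was listed at 0, and the one with the lowest signals, l(1)sc, had 2.89 and 7.5 in Yki discs, against 16.2 and 18.7 in control discs.

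Among the other lists the medians lay on both sides of 0. Muscle markers were above 0 in 10 of 10 genes (median 1.41), with summed intensities of 26921 and 43896 on the Yki arrays, against 9658 and 16394 on the control arrays. Eye and photoreceptor markers had a median of 0.16 over 14 genes, with values on both sides of 0. At an unadjusted limma p under 0.05, 4 were higher and 2 lower, beside 7.19% and 8.07% of all genes. The differences ran from 2.06 for the light response channel gene trp to -2.35 for the homeobox gene ro. Glial markers had a median of -0.19 over 7, haemocyte markers of -0.30 over 8 and fat body markers of -0.38 over 3. Germline markers, looked at because many mitosis genes are strongly used there, were dim, with a median of 0.05 over 8 genes and summed intensities of 192 and 219 in Yki discs, against 176 and 241 in control discs. The part of muscle and other tissue in the mitosis values was not tested.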

How the data were processed

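The authors deposited 1 table of linear probe set intensity values, 1 column per array, made with Affymetrix Expression Console per the submitters' processing notes. The series' design text also names dChip. The summary method is not given in the sources used here. The deposited intensity values have a trimmed mean of 500.01 on every array, and 0 columns went unused. Control probe sets (183) were left out.

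Probe sets were named through the platform annotation. limma 3.58.1 in R 4.3.3 (lmFit, eBayes) was run on log2(intensity + 16) over 18769 probe sets, with group as the only term, Benjamini-Hochberg adjustment over all of them and calls at an adjusted p under 0.05. Residual degrees of freedom were 2, and moderation added 3.03. The pipeline was tested on simulated data. Gene lists were fixed as names, with outdated or mistaken symbols corrected or dropped once the annotation was in hand. The members and lists were chosen with earlier results of these data known, so no p is given over a list. All measured members may be named, with array values for the 2 largest differences of each role and for members above 0. Array values of CycB3, aurB, Bub3, cid, Cenp-C, cal1 and SAK were added after the values were seen. Of the other mitosis genes, up to 3 per set and direction were named, and of S phase and marker genes up to 3. Genes outside that rule (gl, Lsp2, l(1)sc, Cap-H2, Cap-D3, the other augmin genes) were named after their values were seen. Replicate numbers come from the labels, which tie them to no shared batch. Deviations of same-numbered arrays correlated at 0.039 over probe sets, so they were not taken as pairs. That correlation cannot show a shift shared by whole arrays, and array medians were closer within replicate numbers than between them. Whether same-numbered arrays shared a batch was not tested.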

Additional observations from a re-analysis of the deposited data

How the results depend on the processing

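The calls over all probe sets depended on the setting. None of the 39 members passed an adjusted p of 0.05 as reported. With array medians subtracted 16 passed, all lower, among them Incenp, borr, tum, mad2 and aurB. There 4.66% of all probe sets passed in either direction, 433 lower and 441 higher. In that fit the moderation gave every probe set the same SD, 0.42. With only probe sets of mean intensity at least 100, 1 member passed (Incenp, limma adjusted p 0.0457), beside 0.869% of those probe sets in either direction. In the other 11 settings 0 passed, at a pseudocount of 1 or 64, with quantile normalization, with trended and robust moderation, with all probe sets of a gene averaged, over genes, with the replicate block and without any 1 array. The replicate block gave a median of -1.05 and 28 members lower at an unadjusted p under 0.05, as without it. The median was -0.82 with a pseudocount of 64, which shrinks differences by construction, and -1.22 to -0.95 without any 1 array. The count at an unadjusted p under 0.05 was 19 to 28 without any 1 array, lowest without control replicate 2. Such fits leave 1 array in a group, which is assumed to vary like the other group.

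Of 505 member values recomputed, 9 changed sign, all for Bub1, tacc, Klp10A or msps. With array medians subtracted Bub1 was at -0.027 and tacc at -0.023, and with quantile normalization tacc was at -0.022. Without any 1 array, Bub1 ran from -0.27 to 0.28, tacc from -0.10 to 0.13, Klp10A from -0.14 to 0.58 and msps from -0.021 to 0.62. The cause was not tested. Leaving out 1 array moved 7 further members by over 1.5 times without a change of sign. Sas-4 ran from -1.57 to -0.73, Cenp-C from -1.22 to -0.18, Bub3 from -1.02 to -0.32, Mis12 from -0.56 to -0.13 and barr from -0.63 to -0.30, lowest without Yki replicate 1 and highest without Yki replicate 2. cal1 ran from -0.78 to -0.05 and SAK from -0.42 to -0.05, lowest without control replicate 1 and highest without control replicate 2. The other 28 members moved by less.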
